A study of Mus musculus with 178 samples.

Results

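The spliceosome core and SR protein genes described here are the 69 genes of the count table whose symbols begin with Prpf, Sf3a, Sf3b, Snrp, Snrnp, Srsf or U2af, or with Lsm and a digit, out of 55450 genes in all. The prefixes matched 71 rows, and 2 rows whose symbols mark them as pseudogenes were left out. The series followed 45 C57BL/6J mice of both sexes, aged 6 to 8 weeks, with orthotopic tumors of 4MOSC1 cells, a carcinogen-induced mouse oral squamous carcinoma line, in the tongue or the buccal mucosa. All mice received the anti-PD-1 antibody RMP1-14, so no untreated mouse entered any comparison, and the sources differ on whether dosing began right after the Day 4 bleed or some days later. Whole blood was taken from behind the eye on Day 4 (pre-treatment) and on Days 9, 17 and 24, and polyadenylated RNA was sequenced in bulk. The 178 libraries were 15, 15, 14 and 15 from responders and 29, 30, 30 and 30 from non-responders on the 4 days, with 1 library per mouse and day. In 1 mouse the Day 17 library is labelled as a responder and the other libraries as a non-responder, and it was counted with the non-responders.

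The spliceosome is assembled on each intron from small nuclear ribonucleoproteins (snRNPs), each a small nuclear RNA wrapped in a ring of Sm or LSm proteins with proteins of its own. U1 marks the start of the intron, U2AF and then U2 with its SF3A and SF3B complexes mark the branch point and the intron end, and the U4/U6.U5 tri-snRNP, with the large scaffold Prpf8 and the helicase Snrnp200, brings in the catalytic core. SR proteins, the Srsf genes, bind exons through RNA recognition motifs, recruit U1 and U2AF through arginine- and serine-rich tails, and regulate which exons are kept. Many of their genes also make transcripts with an exon that sends them to decay, which counts per gene do not separate.

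Haemoglobin genes took 68.7% to 88.0% of the counts of a library, as whole blood gives, and the totals were 26058958 to 82208665 counts per library, of which 4536692 to 22177360 fell on other genes. 1 Day 24 library of a non-responder, called the outlying Day 24 library here, stood apart, with a TMM factor of 0.0848 and 12605 genes with a count. Some results that rest on it are given with and without it, and the counts of cell markers only with it. The mice carry ear tags of 4 digits (11 responders and 7 non-responders) or of 3 digits (4 responders and 23 non-responders), so that tag series and response are partly confounded. In whole blood, fewer cells of a type and less RNA per cell cannot be told apart.

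The members spanned a wide range of levels. In TPM, which accounts for transcript length and counts haemoglobin in its sum, the highest median over all libraries was that of Srsf5 at 12.9, followed by Sf3b1 at 10.9 and the U1 protein gene Snrnp70 at 10.8. The next families were led by Snrpb (5.69), which encodes an Sm ring protein, U2af2 (5.32), Lsm14a (4.41), Prpf38b (3.88) and Sf3a3 (1.495). The lowest medians within the families were 0.885 for Sf3a1, 0.84 for U2af1l4, 0.38 for Sf3b5, 0.30 for Prpf40b, 0.24 for Snrnp35, 0.14 for Lsm11, 0.02 for Srsf12 and 0.01 for Snrpn. Snrpn, best known from neurons, was listed at a TPM of 0 in 69 libraries and entered no test. Srsf12 was tested in 7 of 13 comparisons and Snrpert, a processed pseudogene in the annotation, in 3; the other 66 members passed the filter on low counts in all 13.

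In non-responders most genes of U2 and its complexes (8, 8 and 7 of 11 on Days 9, 17 and 24) and of the tri-snRNP and Prp19 group (7, 6 and 6 of 10) fell from Day 4, and most SR protein genes (7, 8 and 8 of 11) rose, although on log2(TPM + 1) the SR median was negative on Days 17 and 24. In responders 7, 7 and 6 of the 11 U2 genes and 6, 5 and 1 of the 10 tri-snRNP and Prp19 genes fell, and 3, 8 and 1 of 10 SR protein genes rose (edgeR quasi-likelihood test, log2 fold changes of TMM-scaled counts ± SE, Benjamini-Hochberg adjusted over all genes, called at an adjusted p of at most 0.05). Among the 67 members tested in non-responders, 12 rose and 30 fell on Day 9, 14 rose and 24 fell on Day 17, and 18 rose and 28 fell on Day 24. Of all genes tested there, 23.3% rose and 27.5% fell on Day 9, 21.9% and 24.2% on Day 17, and 23.8% and 24.8% on Day 24. The members' share of risers (17.9%, 20.9% and 26.9%) lay near that of all genes, and their share of fallers (44.8%, 35.8% and 41.8%) lay above it. Among the 66 members tested in responders, 6 rose and 21 fell on Day 9, 15 rose and 15 fell on Day 17, and 2 rose and 16 fell on Day 24. On Day 24 only 6 were called without the filter on low counts, and none within either ear tag series or on log2(TPM + 1). The shares of all genes in responders were 13.5% up and 14.2% down, 12.2% and 13.4%, and 7.44% and 9.94% on the 3 days, against 31.8%, 22.7% and 24.2% of members that fell. The 3 comparisons of a group share its Day 4 libraries and are not independent of each other. Few changes were large: at a fold change of at least 1.5 only Srsf7, which encodes an SR protein with a zinc knuckle, remained, on Day 17 in responders.

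**Figure D1:**
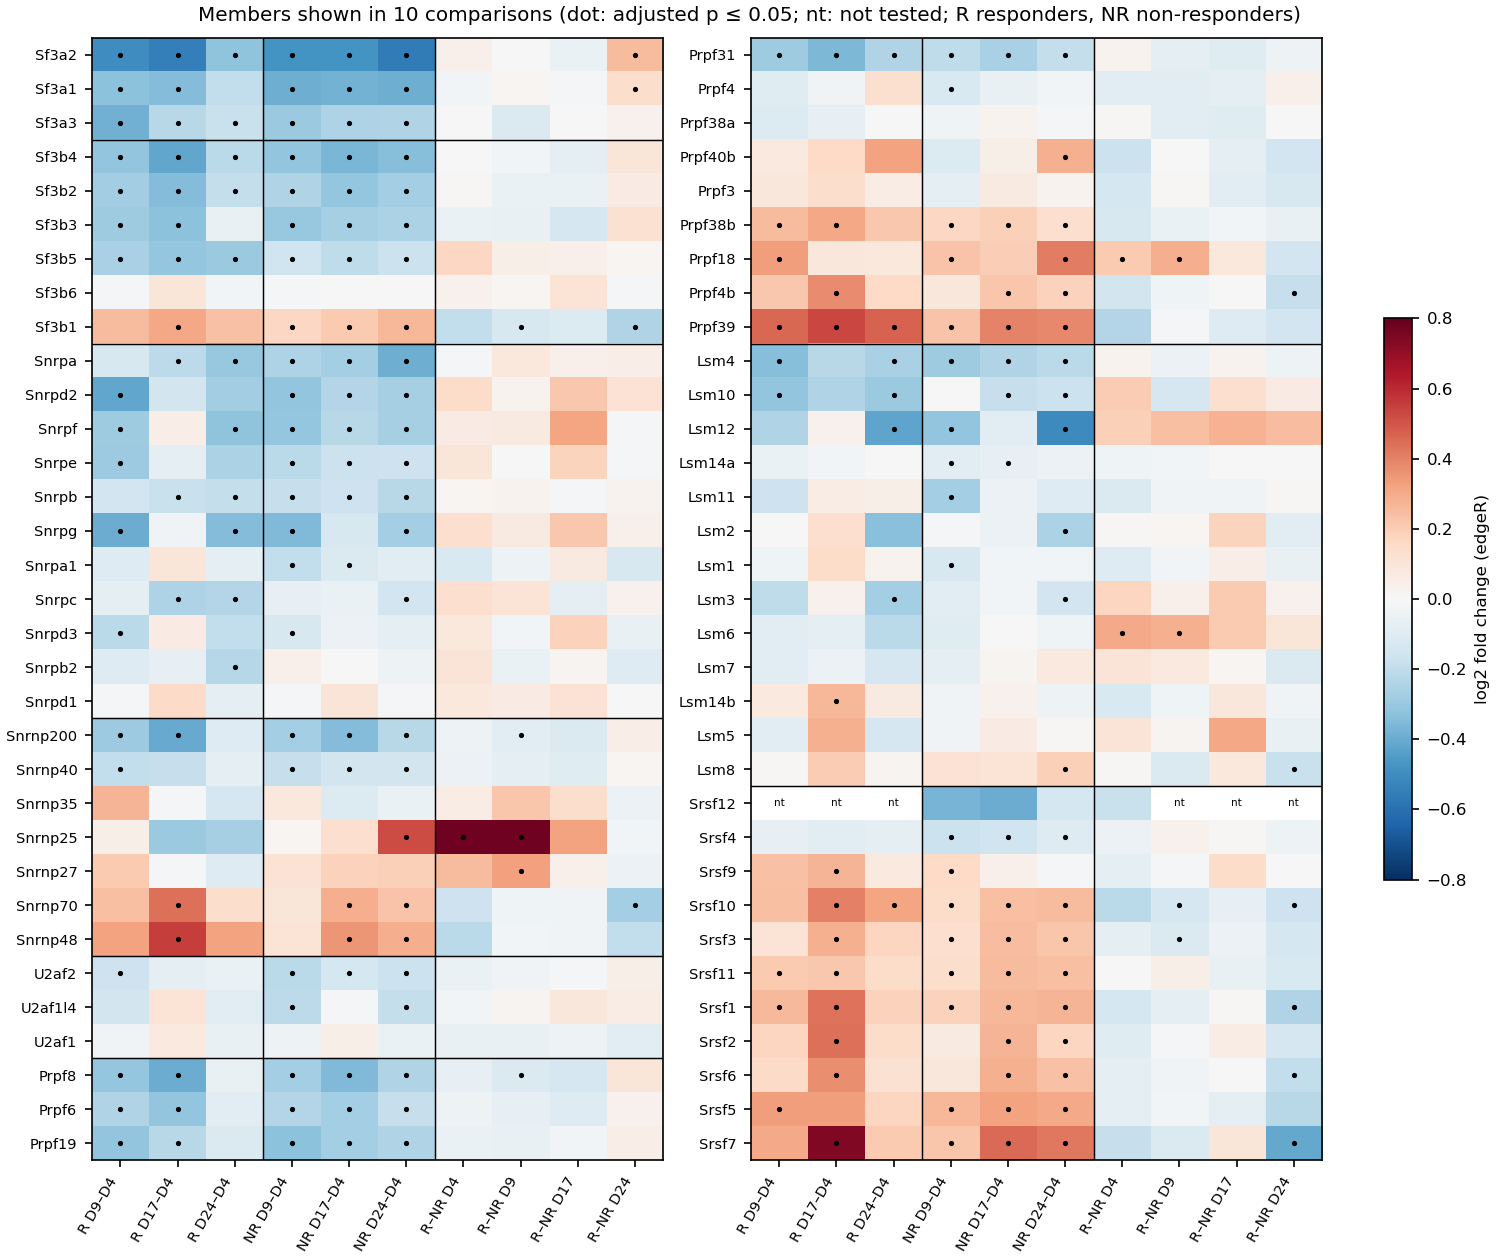
Log2 fold changes (edgeR, TMM-scaled counts) of the tested members in rows, with 1 left out, ordered by family, for the changes from Day 4 in responders (R) and non-responders (NR) and for responders against non-responders on each day. Dots mark an adjusted p of at most 0.05; the Sf3a rows and most Sf3b rows are blue after Day 4 and most Srsf rows red, with Sf3b1 red and Srsf4 blue, while on the log2(TPM + 1) scale the median of the Srsf rows is negative in non-responders on Days 17 and 24.

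The scale bears on these directions. On log2(TPM + 1), where haemoglobin shares the fixed sum, the median of all genes itself moved by -0.14 on Day 17 and -0.16 on Day 24 in non-responders, and no member rose while 45 and 49 of 67 fell (limma), where 2.05% and 1.33% of all genes rose and 60.3% and 69.1% fell. The members' share of falls there lay near that of all genes. In responders the same scale moved all genes by at most 0.05 in size, and no member passed there on any day. Removing the 12 haemoglobin genes before scaling, or using DESeq2, turned no direction of a named member that was called in the main fit or in that alternative.

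The 3 SF3A genes, whose products join U2 to the branch point, fell together in TMM-scaled counts, and their median was negative on both scales. The median log2 fold change was -0.39, -0.38 and -0.39 on Days 9, 17 and 24 in non-responders and -0.39, -0.35 and -0.20 in responders, and on log2(TPM + 1) it lay between -0.43 and -0.02. In TMM-scaled log2 CPM, Sf3a2 had a lowest, median and highest level of 2.56, 2.87 and 3.79 in non-responders on Day 4 and of 2.32, 2.56 and 2.74 on Day 9. On Days 17 and 24 the medians were 2.60 and 2.51, with ranges of 2.14 to 2.89 and 2.03 to 2.74. Below the lowest Day 4 level lay 12, 12 and 19 of 30 libraries on Days 9, 17 and 24, and the others overlapped with the Day 4 range. Sf3a2 fell by 0.48 ± 0.06 on Day 9 (adjusted p = 5.41e-13), by 0.48 ± 0.06 on Day 17 (4.17e-12) and by 0.56 ± 0.06 on Day 24 (4.32e-14), and was lower than on Day 4 in 26, 26 and 28 of 29 non-responder mice.

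In responders the level of Sf3a2 went from 2.59, 2.94 and 3.55 on Day 4 to 2.18, 2.49 and 2.84 on Day 17, a fall of 0.55 ± 0.08 (adjusted p = 5.23e-06) seen in 13 of 14 mice. On Day 24 it was at 2.45, 2.73 and 3.28, nearer to Day 4, with a fall of 0.32 ± 0.08 (0.00599). Sf3a1 fell by 0.33 ± 0.07, 0.35 ± 0.08 and, without a call on Day 24, differed by -0.20 ± 0.07 (adjusted p = 0.0503). Sf3a3 fell by 0.39 ± 0.06, 0.22 ± 0.06 and 0.18 ± 0.06 on the 3 days.

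The SF3B genes, which build the clamp around the branch point adenosine, split. Their family median was -0.20, -0.23 and -0.21 in non-responders and -0.27, -0.32 and -0.12 in responders, and on log2(TPM + 1) it was negative too except for 0.01 in responders on Day 24. Sf3b2, Sf3b3, Sf3b4 and Sf3b5 fell on all 3 days in non-responders, and in responders all but Sf3b3 on Day 24 did (-0.06 ± 0.05). Sf3b2 went from 5.01, 5.18 and 5.66 log2 CPM on Day 4 to 4.66, 4.95 and 5.07 on Day 17 in non-responders, with all 29 mice lower (-0.31 ± 0.03, adjusted p = 1.56e-13). Sf3b1, the largest subunit and the most abundant of the family, moved the other way: in non-responders it rose by 0.17 ± 0.05, 0.21 ± 0.05 and 0.26 ± 0.05 (adjusted p = 0.0045, 0.000432 and 1.82e-05). On log2(TPM + 1) these values for Sf3b1 were negative on Days 17 and 24 (-0.07 and -0.09). In the 7 non-responders with ear tags of 4 digits Sf3b1 was at -0.08, -0.00056 and 0.02 without a call. Sf3b6 was not called in any comparison.

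The scaffold and helicase of the tri-snRNP fell with little spread between mice. Prpf8 had a lowest, median and highest level of 5.75, 5.91 and 6.44 log2 CPM in non-responders on Day 4, and of 5.34, 5.59 and 5.84 on Day 17. It was lower than on Day 4 in all 29 non-responder mice on each later day and in 15 of 15 and 14 of 14 responder mice on Days 9 and 17, so that the ranges of the days overlapped at their edges while every mouse moved down. The fall was 0.27 ± 0.03, 0.35 ± 0.03 and 0.24 ± 0.03 in non-responders (adjusted p = 6.45e-13, 6.93e-17 and 7.12e-10), and 0.31 ± 0.05 and 0.40 ± 0.05 in responders on Days 9 and 17 (3.04e-06 and 1.12e-07). On Day 24 the responder level of 5.63, 5.77 and 5.95 differed from that of Day 4 (5.64, 5.85 and 6.08) by -0.06 ± 0.05, with 9 of 15 mice lower.

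Snrnp200, the helicase that unwinds U4 from U6, followed with falls of 0.27 ± 0.03, 0.35 ± 0.03 and 0.22 ± 0.03 in non-responders and of 0.29 ± 0.05 and 0.40 ± 0.05 in responders on Days 9 and 17. Prpf6, a bridge between U5 and U4/U6, Prpf19, the ubiquitin ligase of the activating complex, and Prpf31, a U4 protein, fell in the same 5 comparisons, by 0.19 to 0.36, and Prpf31 also on Day 24 in responders (0.24 ± 0.07). Of the 10 tri-snRNP and Prp19 genes, 7, 6 and 6 fell in non-responders on the 3 days, where 27.5%, 24.2% and 24.8% of all genes fell. In responders 6, 5 and 1 fell, against 14.2%, 13.4% and 9.94% of all genes, so that the Day 24 count there lay at the share of all genes. Prpf18, a factor of the second catalytic step, rose on Day 9, by 0.33 ± 0.08 in responders and 0.23 ± 0.09 in non-responders. Its rise on Day 24 in non-responders, 0.41 ± 0.09, was 0.24 without the outlying Day 24 library, whose level of 6.23 log2 CPM was far above the group's median of 3.47, and stayed called. On log2(TPM + 1) this Day 24 value of Prpf18 turned to -0.11.

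Among the Sm ring genes no member rose and 6, 4 and 5 of 7 fell in non-responders on the 3 days, against 5, 1 and 3 in responders. Of all genes 27.5%, 24.2% and 24.8% fell in non-responders and 14.2%, 13.4% and 9.94% in responders, and the responder count of Day 17 lay at that share. Counts of these short genes may be shared with processed pseudogenes in the authors' counting, which was not tested. Snrpd2 fell by 0.32 ± 0.07, 0.23 ± 0.07 and 0.27 ± 0.07 in non-responders, and Snrpb by 0.18 ± 0.04, 0.17 ± 0.04 and 0.22 ± 0.04. In the non-responders with 4-digit tags Snrpd2 had the other sign on Day 24. Snrpd1 was not called on any day (-0.02 ± 0.07, 0.10 ± 0.07 and -0.01 ± 0.07). The family median of the Snrp genes was negative after Day 4 in both groups, except that on log2(TPM + 1) it was 0.08 in responders on Day 17.

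The U1 proteins split like the SF3B subunits. Snrpa fell by 0.25 ± 0.05, 0.27 ± 0.05 and 0.39 ± 0.05 in non-responders, but had the other sign on Day 9 in those with 4-digit tags. Snrnp70, the U1 protein to which SR proteins bind, had levels of 4.26, 5.21 and 5.61 log2 CPM on Day 4 and of 4.36, 5.47 and 5.64 on Day 17 there, rising by 0.29 ± 0.06 (adjusted p = 5.35e-05) and by 0.23 ± 0.06 on Day 24. In responders it rose by 0.44 ± 0.13 on Day 17 (0.00778). On log2(TPM + 1) the non-responder values of Snrnp70 were -0.06 and -0.23. In the 7 non-responders with ear tags of 4 digits they were 0.05 and -0.11 on Days 17 and 24. U2af2, the large U2AF subunit that binds the polypyrimidine tract, fell on all 3 days in non-responders (0.22 ± 0.02, 0.14 ± 0.02 and 0.17 ± 0.02) and on Day 9 in responders (0.17 ± 0.04), while U2af1, which reads the intron end, was not called in any comparison.

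Of the 8 LSm genes of the ring around U6 or its cytoplasmic decay counterpart, 2, 1 and 3 fell in non-responders on the 3 days and 1, 0 and 2 in responders. That compares with 27.5%, 24.2% and 24.8% and 14.2%, 13.4% and 9.94% of all genes. These counts lay near or below those shares except on Day 24. Lsm8 rose on Day 24 in non-responders (0.19 ± 0.06). Lsm4 fell on all 3 days in non-responders (0.28 ± 0.06, 0.24 ± 0.06 and 0.21 ± 0.06) and on Days 9 and 24 in responders (0.34 ± 0.09 and 0.26 ± 0.09). Its Day 24 value was 0.11 in the non-responders with 4-digit tags, and 0.006 in responders on log2(TPM + 1). Lsm2 fell on Day 24 in non-responders (0.25 ± 0.06), with a value of -0.33 ± 0.13 in responders (adjusted p = 0.0597). Lsm12, which is no part of that ring, fell on Day 24, by 0.51 ± 0.11 in non-responders and 0.42 ± 0.15 in responders, with wide ranges on Day 4 of 3.45 to 5.42 and 3.75 to 5.61 log2 CPM. In the non-responders with 4-digit tags Lsm12 had the other sign on Day 24.

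Of the SR protein genes, 7, 8 and 8 of 11 tested rose in non-responders on Days 9, 17 and 24, and 3, 8 and 1 of 10 in responders, with family medians of 0.14, 0.25 and 0.23 and of 0.22, 0.35 and 0.16, which on log2(TPM + 1) were 0.06, -0.10 and -0.18 in non-responders and 0.13, 0.43 and 0.20 in responders. Of all genes 23.3%, 21.9% and 23.8% rose in non-responders and 13.5%, 12.2% and 7.44% in responders, and the responder count of Day 24 lay near that share. Srsf4 was the one SR gene that fell, in non-responders by 0.17 ± 0.03, 0.16 ± 0.03 and 0.11 ± 0.03. Srsf7 had a lowest, median and highest level of 2.42, 4.07 and 4.52 log2 CPM in responders on Day 4 and of 3.16, 4.58 and 4.79 on Day 17. The 2 days overlapped, and 13 of 14 mice were higher on Day 17, a rise of 0.74 ± 0.15 or 1.67-fold (adjusted p = 0.000304).

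In non-responders Srsf7 rose by 0.22 ± 0.09, 0.45 ± 0.09 and 0.42 ± 0.09, in 17, 24 and 21 of 29 mice. Srsf1, an SR protein that also acts in mRNA export and translation, rose by 0.18 ± 0.05, 0.27 ± 0.05 and 0.27 ± 0.05, and in responders by 0.26 ± 0.10 and 0.43 ± 0.10 on Days 9 and 17. Srsf2, which binds exonic enhancers in the nucleus, rose by 0.27 ± 0.05 and 0.17 ± 0.05 on Days 17 and 24 in non-responders and by 0.44 ± 0.09 on Day 17 in responders. Srsf3, the smallest SR protein, rose by 0.14 ± 0.05, 0.25 ± 0.05 and 0.22 ± 0.05 in non-responders. The non-responder values of Days 17 and 24 turned negative on log2(TPM + 1) for Srsf1 (-0.05 and -0.09), Srsf2 (-0.10 and -0.26) and Srsf3 (-0.15 and -0.21). In the 7 non-responders with ear tags of 4 digits, Srsf1 (-0.06), Srsf3 (-0.03) and Srsf7 (-0.06) were negative on Day 9, Srsf3 (-0.0018) on Day 17, and Srsf1 (-0.03), Srsf2 (-0.05) and Srsf7 (-3.4e-05) on Day 24. Outside the family, Prpf39, a U1-associated factor, rose in each of the 6 comparisons, by 0.23 ± 0.09 to 0.53 ± 0.15. In the same 7 mice Prpf39 was at -0.08, -0.03 and 0.04 without a call. Snrnp48, a protein of the minor spliceosome's U11/U12 particle, rose by 0.55 ± 0.16 on Day 17 in responders.

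**Figure D2:**
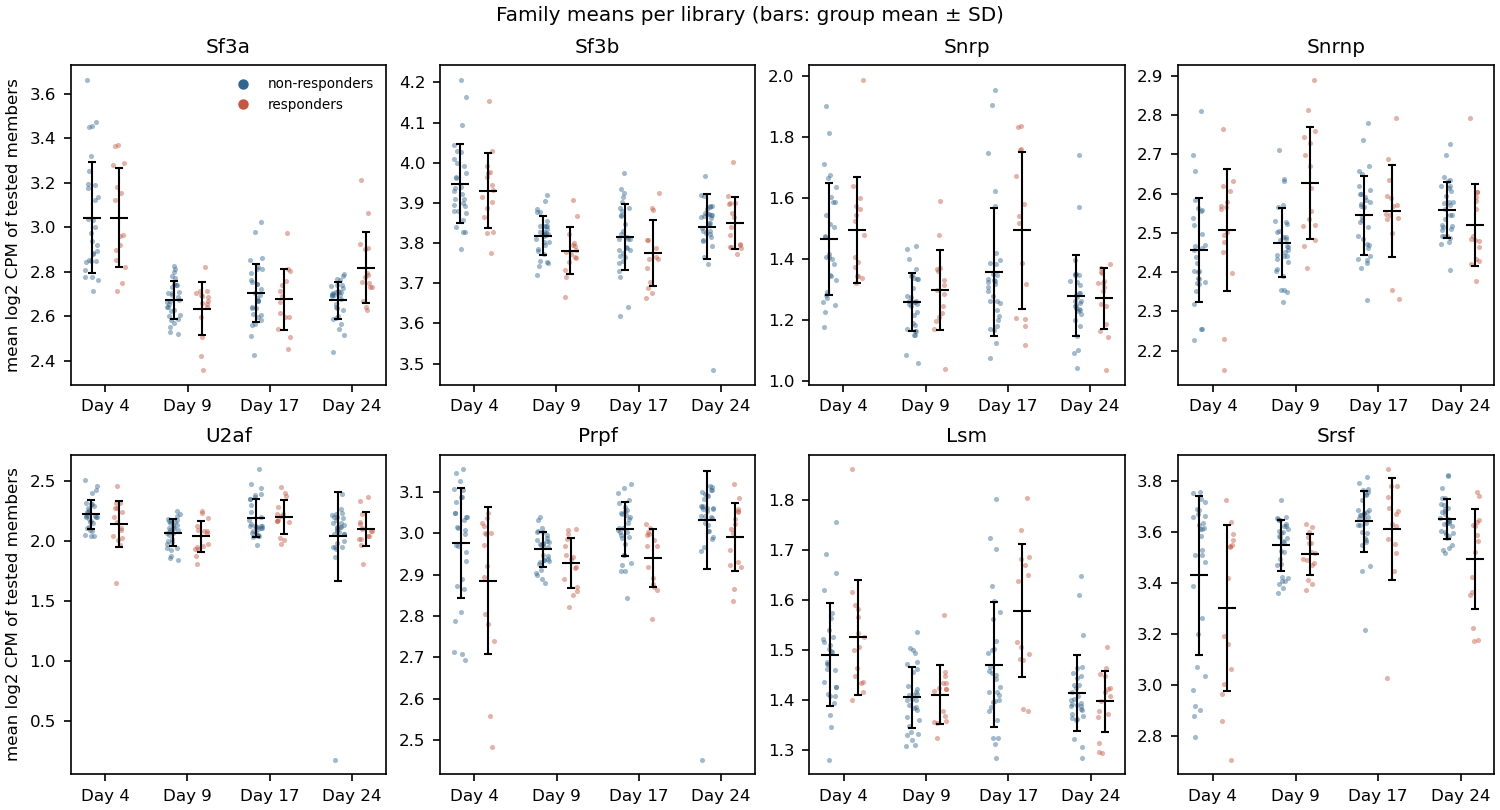
Mean TMM-scaled log2 CPM over the tested members of each family in each library (points), by day, with the group mean ± SD as bars; blue marks non-responders and red responders. The Sf3a and Srsf means of Day 4 are spread from 2.71 to 3.66 and from 2.71 to 3.75, wider than on Day 9, and the lone low point of U2af and Prpf on Day 24 is the outlying Day 24 library.

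The family means were more widely spread on Day 4 than on Day 9, in each of the 8 families and both groups. The mean of the Srsf genes had an SD of 0.31 in non-responders and 0.33 in responders on Day 4 and of 0.10 and 0.08 on Day 9, and that of the Sf3a genes 0.25 and 0.22 against 0.08 and 0.12. Against Days 17 and 24 this did not hold for all: the SD of the Snrp mean was 0.18 and 0.17 on Day 4 and 0.21 and 0.26 on Day 17, that of the Lsm mean 0.10 and 0.12 against 0.13 and 0.13, and that of the U2af mean in non-responders 0.12 on Day 4 and 0.37 on Day 24, where the outlying Day 24 library was the lowest. Srsf7 in non-responders ranged from 2.43 to 4.60 on Day 4 with a median of 4.18, and from 3.64 to 4.58 on Day 9 with a median of 4.19, so that its Day 9 rise came with nearly equal medians and the loss of the low values. Prpf39 likewise ranged from 1.46 to 3.95 with a median of 3.38 on Day 4, and from 3.17 to 3.85 with a median of 3.52 on Day 9. The difference of the group medians, added after seeing the data, kept the sign of each called change in all 6 comparisons, but for the 12 members that rose on Day 9 in non-responders its median was 0.08, against 0.17 for their log2 fold changes, and for the 18 that rose on Day 24 there it was 0.16 against 0.26.

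Within 1 library the mean of the Srsf genes minus that of the Sf3a genes depends on scaling only through the prior count. This gap was lowest at -0.75, had a median of 0.51 and was highest at 0.99 in non-responders on Day 4, and was 0.59, 0.90 and 1.06 on Day 9. In responders it was -0.58, 0.39 and 0.89 on Day 4 and 0.66, 0.85 and 1.20 on Day 9. The gap was wider on Day 17 than on Day 4 in 26 of 29 non-responder and 13 of 14 responder mice. It was not a planned measure, and it sets a family that rose against a family that fell in these same libraries. Its widening after Day 4 follows from that choice and is no separate result. The cut used next, the lowest Day 9 gap, was also taken from these values. Below the lowest Day 9 gap of 0.59 lay 23 of 44 libraries on Day 4, 3 of 44 on Day 17 and 5 of 45 on Day 24. The 23 Day 4 libraries were 8 of 15 responders and 15 of 29 non-responders. Their haemoglobin share was 71.0% to 87.8% with a median of 81.8%, against 68.7% to 84.1% with a median of 77.8% in the other 21. The part of haemoglobin share in this gap was not tested.

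**Figure D3:**
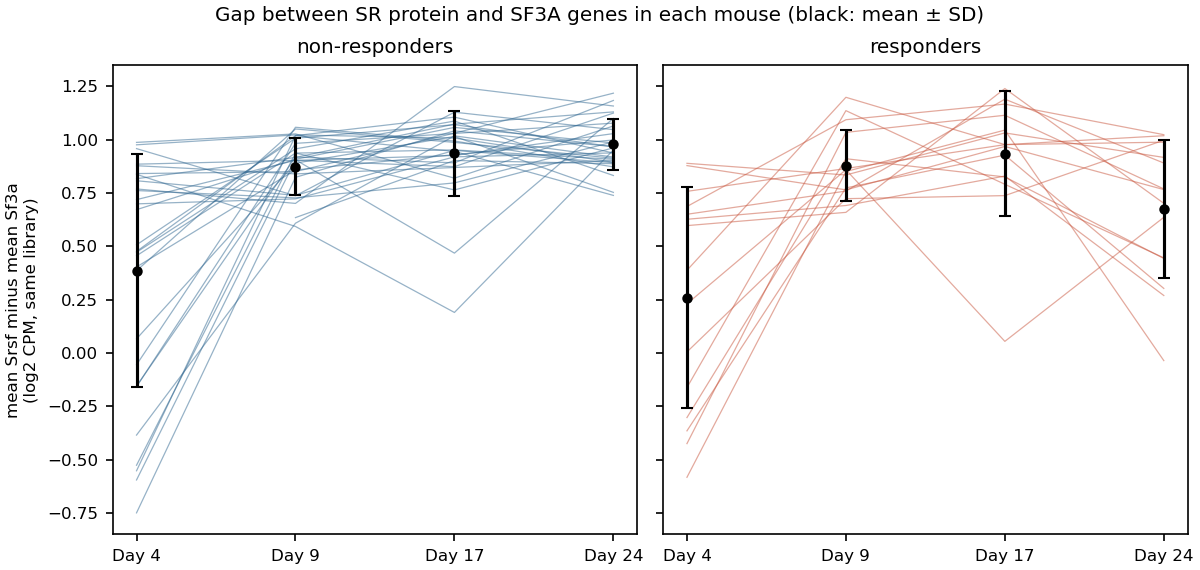
Mean log2 CPM of the Srsf genes minus that of the Sf3a genes in the same library, for each mouse over the days (lines), with the group mean ± SD in black; non-responders on the left and responders on the right. The means go from 0.39 to 0.87 between Days 4 and 9 in non-responders and from 0.26 to 0.88 in responders, Day 4 holds most of the low values, and the responders of Day 24 lie from -0.04 to 1.02. The gap sets a family that rose against a family that fell in these same libraries.

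The changes were also fitted within each tag series, an alternative chosen after seeing the data. In the 23 non-responders with 3-digit tags, 15 members rose and 24 fell on Day 17 (23.6% and 27.8% of all genes), with a median of 0.31 for the Srsf genes and -0.41 for the Sf3a genes. In the 7 non-responders with 4-digit tags, 0 rose and 8 fell (6.72% and 6.03% of all genes), with medians of 0.01 and -0.29; 1 of their 7 Day 4 libraries lay below the gap named above, against 14 of 22. Of the members called in all non-responders, 8 of 12, 6 of 14 and 8 of 18 that rose and 3 of 30, 0 of 24 and 7 of 28 that fell on Days 9, 17 and 24 had the other sign in these 7 mice. None did in the other 3 sets of mice, each against its own group. On Day 17 Prpf8 differed by -0.37 ± 0.03 and -0.32 ± 0.08 in the 2 sets of non-responders, and Srsf7 by 0.54 ± 0.10 and 0.20 ± 0.11. In the 11 responders with 4-digit tags 3 members rose and 16 fell on Day 17 (7.65% and 12.1% of all genes), and in the 4 with 3-digit tags no member passed, nor did any other gene, with Srsf7 at 1.15 ± 0.30 (adjusted p = 0.077). The difference between the series was not tested.

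Measured from Day 9 instead of Day 4, also added after seeing the data, no SF3A or SF3B gene passed in non-responders. There 10 members rose and 2 fell on Day 17, where 10.3% of all genes rose and 16.2% fell, and 7 rose and 5 fell on Day 24, where 21.2% rose and 20.6% fell. Srsf2 rose by 0.20 ± 0.05 and Srsf7 by 0.23 ± 0.09 between Days 9 and 17, while the Sf3a median was 0.01. In responders 1 member rose and none fell on Day 17 (1.85% and 3.68% of all genes), namely Snrpd3, by 0.28 ± 0.08. On Day 24 responders had 8 risers and 3 fallers (8.07% and 10.9% of all genes), and the risers, named after their values were seen, were Prpf8 by 0.25 ± 0.05 (adjusted p = 8.6e-05), Sf3b3 by 0.23 ± 0.05, Prpf4 by 0.23 ± 0.06, Sf3a3 by 0.21 ± 0.06, Prpf19 by 0.20 ± 0.06, Snrnp200 by 0.19 ± 0.05, Prpf6 by 0.15 ± 0.05, and U2af2 by 0.11 ± 0.04. The fallers were Snrnp35, by 0.41 ± 0.14, Snrnp27, by 0.32 ± 0.10, and Prpf18, by 0.25 ± 0.08.

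In TMM-scaled counts, markers of blood cell types moved with the days. Of all genes 23.3%, 21.9% and 23.8% rose and 27.5%, 24.2% and 24.8% fell in non-responders on Days 9, 17 and 24. In responders 13.5%, 12.2% and 7.44% rose and 14.2%, 13.4% and 9.94% fell. All 8 T cell markers fell in non-responders on each later day and 8, 6 and 7 of 8 in responders, with their summed TPM at 23.8 to 95.1 on Day 4 and 16.7 to 61.3 on Day 17 in non-responders and at 11.4 to 63.7 and 16.3 to 80.1 in responders. Of 8 neutrophil markers, 7, 6 and 5 rose in non-responders and 3, 4 and 0 in responders, and 1 fell on Day 17 in each group and on Day 24 in responders, with summed TPM of 111 to 687 on Day 4 and 111 to 1067 on Day 17 in non-responders. Of 8 B cell markers, 8, 6 and 4 fell in non-responders and 5, 6 and 1 in responders, where 2 rose on Day 24. Of 7 monocyte markers, 7, 4 and 3 rose in non-responders and 5, 2 and 0 in responders, and 1 fell on Day 24 in non-responders and 1 and 2 on Days 17 and 24 in responders. All 5 NK cell markers fell on Day 24 in both groups, after 2 and 4 in non-responders and 1 and 2 in responders on Days 9 and 17. Of 6 platelet markers, 5, 0 and 6 fell in non-responders and 1, 0 and 3 in responders. Of 9 erythroid markers, 3, 3 and 8 rose in non-responders and 1, 1 and 1 in responders. The Day 24 marker counts in non-responders include the outlying Day 24 library. Of 6 proliferation markers, 3, 3 and 2 rose in non-responders and 2, 0 and 0 in responders, with 1 fall in each comparison. Summed TPM moved otherwise in part. Its monocyte median in non-responders was 154, 253, 149 and 98.6 on Days 4, 9, 17 and 24. The neutrophil median there was 275, 481, 294 and 264, and the proliferation median 5.58 on Day 4 and 4.615 on Day 24. In responders the monocyte, neutrophil and proliferation medians were 111, 165 and 3.65 on Day 4 and 97.7, 267 and 4.55 on Day 24. Of the 2 epithelial markers tested, 2, 0 and 1 rose in non-responders and 1, 1 and 1 in responders. The summed TPM of the 5 listed was at most 41.4, with 3 of the 5 at a median of 0 in non-responders on Day 4. No marker of the other lists had a median of 0, and the part of these cell types in the members' changes was not tested.

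The promoters of 5 members are shown because the first pair rose and the second fell together, in TMM-scaled counts, and the last differed between responders and non-responders on Days 4 and 9. Each is the 250 bases before the RefSeq transcription start on GRCm38.p6, on the strand of the gene: Srsf7 at chr17:80207306-80207555 (minus strand), Sf3b1 at chr1:55027479-55027728 (minus), Sf3a2 at chr10:80798485-80798734 (plus), which in the GENCODE annotation lies within the gene, Prpf8 at chr11:75486527-75486776 (plus) and Snrnp25 at chr11:32205165-32205414 (plus). Capitals mark matches on either strand to GGGCGG (a GC box), CCGGAA (an ETS core) and CCAAT.
Srsf7: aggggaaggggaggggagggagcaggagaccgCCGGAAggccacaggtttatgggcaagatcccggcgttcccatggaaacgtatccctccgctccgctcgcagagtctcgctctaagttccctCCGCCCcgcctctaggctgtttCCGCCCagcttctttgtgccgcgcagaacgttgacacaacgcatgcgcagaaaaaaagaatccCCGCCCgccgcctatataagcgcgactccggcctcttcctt
Sf3b1: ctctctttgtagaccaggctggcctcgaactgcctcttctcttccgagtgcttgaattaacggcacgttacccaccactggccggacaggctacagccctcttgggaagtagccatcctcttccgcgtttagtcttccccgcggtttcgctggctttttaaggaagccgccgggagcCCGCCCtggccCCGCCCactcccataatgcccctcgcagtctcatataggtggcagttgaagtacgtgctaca
Sf3a2: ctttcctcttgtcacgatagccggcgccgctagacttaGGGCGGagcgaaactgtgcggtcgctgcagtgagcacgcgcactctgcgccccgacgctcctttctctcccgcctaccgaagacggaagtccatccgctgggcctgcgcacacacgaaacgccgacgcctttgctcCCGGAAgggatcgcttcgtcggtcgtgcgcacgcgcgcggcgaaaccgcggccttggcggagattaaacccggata
Prpf8: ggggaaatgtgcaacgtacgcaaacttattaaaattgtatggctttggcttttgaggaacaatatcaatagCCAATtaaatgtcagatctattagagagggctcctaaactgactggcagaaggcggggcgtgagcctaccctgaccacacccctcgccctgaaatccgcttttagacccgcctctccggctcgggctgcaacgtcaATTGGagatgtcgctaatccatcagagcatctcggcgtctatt
Snrnp25: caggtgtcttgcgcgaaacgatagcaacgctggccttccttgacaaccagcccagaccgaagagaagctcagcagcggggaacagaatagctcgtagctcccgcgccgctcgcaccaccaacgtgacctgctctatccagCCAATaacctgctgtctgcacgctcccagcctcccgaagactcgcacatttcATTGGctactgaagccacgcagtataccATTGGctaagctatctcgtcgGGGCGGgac

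Windows of 57 members were in the RefSeq table. GGGCGG was present in 37 of the 57, against 32.7% of all 32851 windows, CCGGAA in 25, against 12.0%, and CCAAT in 20, against 33.8%. Among members that rose from Day 4 in 1 or more of the 6 comparisons GGGCGG was present in 18 of 19 windows and CCGGAA in 6. Among members that fell in 1 or more GGGCGG was present in 12 of 27 and CCGGAA in 16. GGGCGG becomes more frequent with GC content, and the median GC content of the windows was 62.0% in the former, 55.6% in the latter and 52.4% over all windows. These counts describe letters in a window and were not tested.

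The transcripts of the 2 directions differ in base composition and in length. The longest transcript of the 21 members that rose in 1 or more comparisons had a median GC content of 41.6%, that of the 35 that fell 50.6%, and that of all tested genes 49.4%. Across the 67 members tested in non-responders, the Spearman correlation of the log2 fold change with GC content was -0.51 on Day 9, -0.51 on Day 17 and -0.47 on Day 24, and over all 13009 genes it was -0.15, -0.21 and -0.23. In responders it was -0.45, -0.55 and -0.38 over 66 members and -0.15, -0.19 and -0.23 over 12560 genes. With transcript length the correlation was 0.16, 0.14 and 0.23 over members in non-responders and 0.23, 0.11 and 0.53 in responders. Over all genes it was 0.14, 0.06 and 0.13, and 0.21, 0.12 and 0.42. For responders against non-responders on Days 4, 9, 17 and 24 it was -0.52, -0.40, -0.64 and -0.16 over members. Over all genes those values were -0.32, -0.23, -0.28 and 0.02. Genes share libraries and base composition and are not replicates, and the part of GC content or length in the changes was not tested.

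**Figure D4:**
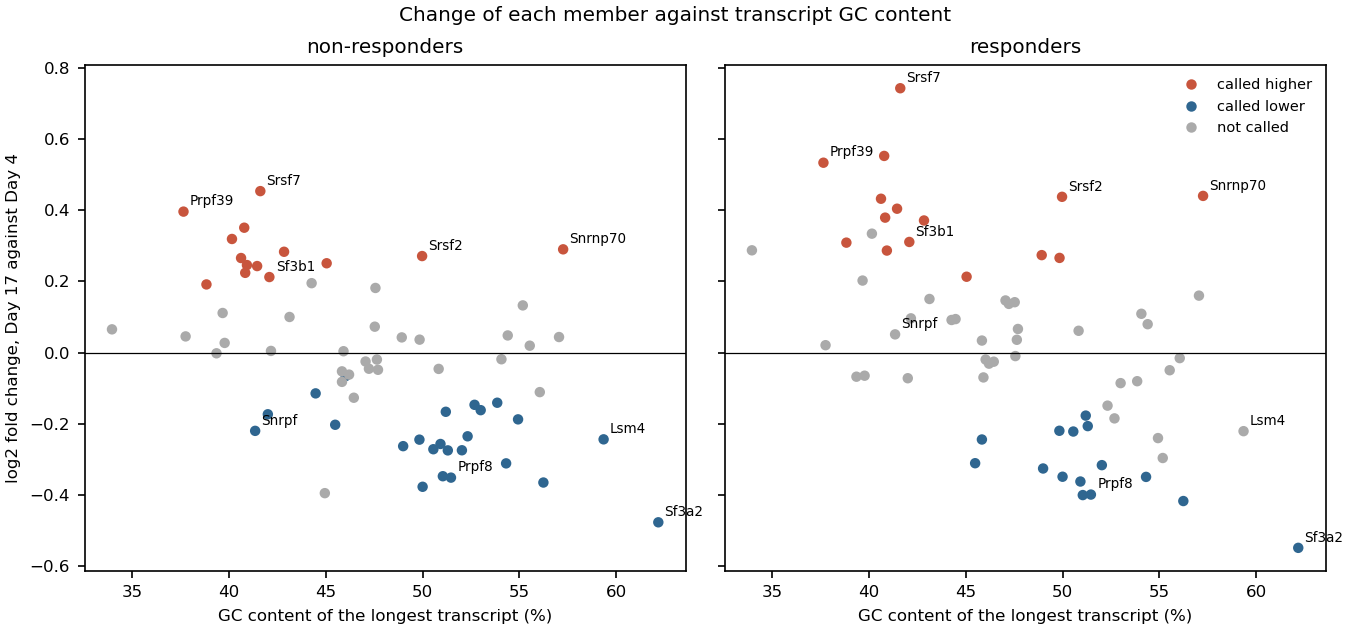
Log2 fold change of each member on Day 17 against Day 4 (y axis, edgeR) against the GC content of its longest transcript (x axis, percent), in non-responders and responders; red and blue mark members called higher and lower. The Spearman correlation is -0.51 in non-responders and -0.55 in responders, and Sf3a2, at 62.2% GC, is at the lower right.

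Between responders and non-responders few members differed on Days 4 and 9. On Day 4, 3 of 67 members were higher in responders and none lower (6.4% and 1.01% of all genes), with 1 lower at an unadjusted p under 0.05 and none by DESeq2. On Day 9, 4 of 66 were higher and 6 lower (9.43% and 3.95% of all genes). Snrnp25, a minor spliceosome protein gene, had the largest difference among the called members on both days. Its lowest, median and highest levels on Day 4 were 0.76, 1.76 and 3.01 log2 CPM in non-responders and 1.33, 2.21 and 4.14 in responders, and on Day 9 they were 0.97, 1.62 and 2.85 against 1.26, 2.53 and 3.25.

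The groups overlapped on both days, with the responder medians above those of the non-responders. The difference for Snrnp25 was 0.78 ± 0.19 on Day 4 (1.72-fold, adjusted p = 0.00625) and 0.78 ± 0.14 on Day 9 (adjusted p = 7.95e-05), and 0.32 ± 0.11 on Day 17 (0.102). Prpf18 differed by 0.21 ± 0.06 and 0.29 ± 0.05 on Days 4 and 9, Lsm6, of the U6 ring, by 0.31 ± 0.09 and 0.29 ± 0.06, and Snrnp27, a tri-snRNP protein gene, by 0.33 ± 0.07 on Day 9. On log2(TPM + 1), where the median of all genes was -0.27 and -0.26, these members were lower in responders or near 0 (-0.13 and 0.02 for Snrnp25). On Day 4 no gene passed within either tag series alone, where Snrnp25 was at 1.03 and 0.60 in the mice with 3-digit and 4-digit tags, Prpf18 at 0.17 and 0.13, and Lsm6 at 0.44 and 0.25. Within the mice with 3-digit tags 4 members kept a call on Day 9, Snrnp25 among them (0.94), where 3.96% of all genes were higher and 0.205% lower, and within the mice with 4-digit tags no gene passed (0.31 for Snrnp25).

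**Figure D5:**
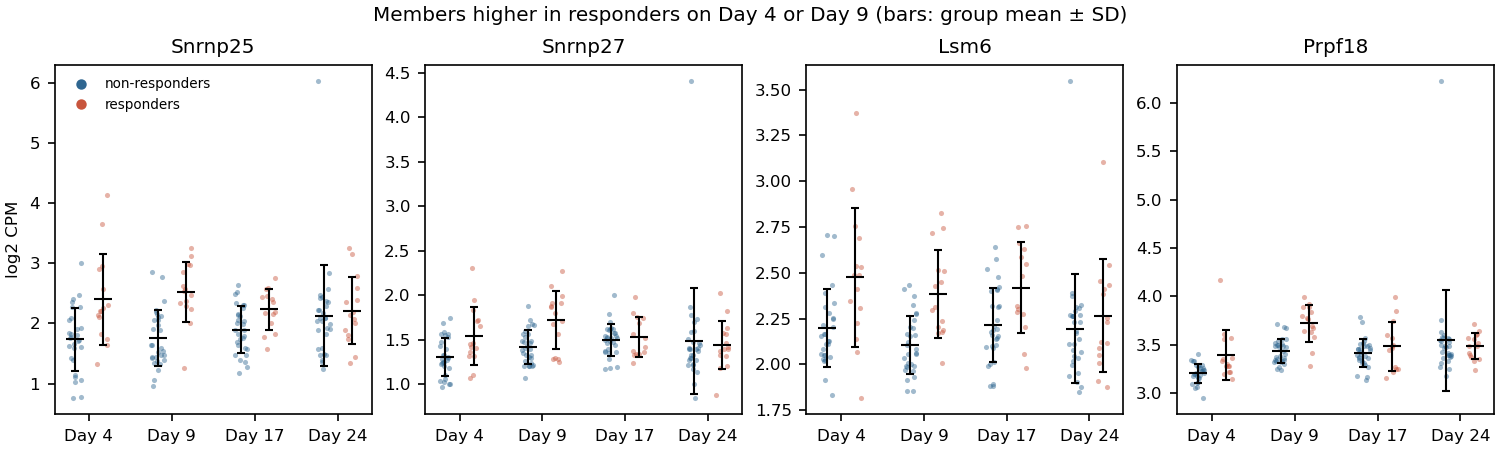
TMM-scaled log2 CPM of Snrnp25, Snrnp27, Lsm6 and Prpf18 in each library (points) by day, with the group mean ± SD as bars; blue marks non-responders and red responders. The responder means lie above the non-responder means on Days 4 and 9, where on log2(TPM + 1) they do not except for Snrnp25 on Day 9, and the single high point of Day 24 is the outlying Day 24 library.

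In TMM-scaled counts, markers of several blood cell types were also higher in responders on these days. Of 9 erythroid markers tested, 5 were higher in responders on Day 4 and all 9 on Day 9, with median differences of 1.05 and 0.86. Slc4a1, the main anion exchanger of red cells, differed by 1.23 and 1.05. Alas2, the first enzyme of haem synthesis in red cells, differed by 1.05 and 0.81. The summed TPM of the 9 markers was 902785 to 959474 in non-responders and 923551 to 962505 in responders on Day 4, with none at 0, and their part in the difference was not tested. Snrnp25 lies at chr11:32205415-32208984 on GRCm38, upstream of the alpha globin genes, with Hba-x 67416 bases, Hba-a1 74527 bases and Hba-a2 87505 bases from its end and Rhbdf1, Nprl3 and Mpg in between. Some markers of other lists were called higher too: on Day 4, 4 of 8 neutrophil, 2 of 7 monocyte and 2 of 6 proliferation markers, and on Day 9, 3 of 6 platelet and 4 of 6 proliferation markers, with median differences over each list of 0.44, 0.38 and 0.22 and of 0.37 and 0.35. In summed TPM the medians of these lists were lower in responders. On Day 4 they were 165 against 275 in non-responders for neutrophil, 111 against 154 for monocyte and 3.65 against 5.58 for proliferation markers. On Day 9 they were 205 against 279 for platelet and 3.81 against 5.71 for proliferation markers. Of 8 B cell markers, 1 was lower in responders on Day 4. The part of these cells was not tested either. On Day 24 in non-responders, when 8 of the 9 erythroid markers rose from Day 4, Snrnp25 rose by 0.52 ± 0.18, but without the outlying Day 24 library, in which it stood at 6.03 log2 CPM against a median of 2.06, the value was 0.24 and not called. The count of 8 markers is given only with that library.

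Among the 6 members lower in responders on Day 9 were Srsf10 (-0.14 ± 0.03), Sf3b1 (-0.13 ± 0.03), Prpf8 (-0.12 ± 0.03), Srsf3 (-0.11 ± 0.03) and Snrnp200 (-0.09 ± 0.03). Their groups overlapped, as with Sf3b1 at 6.58, 6.78 and 6.98 log2 CPM in non-responders and 6.42, 6.67 and 6.81 in responders. On Day 17 no member passed by edgeR, and 13 of 66 had an unadjusted p under 0.05; DESeq2 called 2 lower, and 0.799% and 1.19% of all genes were higher and lower.

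On Day 24, 4 of 10 SR genes were lower and 2 of 3 SF3A genes higher in responders, where on log2(TPM + 1) none passed and Sf3a1 turned to -0.02. Of 66 members 2 were higher and 8 lower, where 3.41% of all genes were higher and 5.14% lower. Srsf7 had a lowest, median and highest level of 3.63, 4.41 and 4.64 log2 CPM in non-responders and 3.46, 3.93 and 4.45 in responders, a difference of -0.41 ± 0.08 (adjusted p = 0.00137) with overlapping ranges. Sf3a2 stood at 2.03, 2.51 and 2.74 against 2.45, 2.73 and 3.28, a difference of 0.25 ± 0.05 (0.00186), and Sf3a1 differed by 0.14 ± 0.04. Lower in responders were also Snrnp70 (-0.27 ± 0.07), Sf3b1 (-0.24 ± 0.05), Srsf1 (-0.24 ± 0.05), Srsf6 (-0.20 ± 0.05), Prpf4b, a kinase of splicing factors (-0.18 ± 0.04), Lsm8, the subunit that sets the nuclear ring apart (-0.18 ± 0.05), and Srsf10 (-0.16 ± 0.05).

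These Day 24 calls depend on which mice are in the fit. The 5 libraries of Day 24 with a gap between Srsf and Sf3a below the Day 9 range all came from responders, 4 of 11 with 4-digit tags and 1 of 4 with 3-digit tags. That gap is built from families that hold several of these calls and is no separate support for them. With the tag series as a covariate 2 calls remained (Srsf7 at -0.36 and Sf3a2 at 0.28), where 0.313% of all genes were higher and 0.666% lower, within either series alone no gene passed (Srsf7 at -0.21 and -0.47), and on log2(TPM + 1) none passed, with the Srsf median at -0.27 and the Sf3a median at -0.02. Without the outlying Day 24 library there were 5 higher and 11 lower.

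The change from Day 4 in responders was then tested against that in non-responders, with an interaction term fitted to all 178 libraries. For Day 9 no member of 68 passed and 1 had an unadjusted p under 0.05, with 0% of all genes called in either direction. For Day 17 none passed and 5 did so unadjusted, with 0.351% of all genes higher in responders and 0% lower; DESeq2 called none on either day. For Day 24, where 1.67% of all genes were higher and 2.1% lower, Prpf8 was the one member called: its change was 0.17 ± 0.05 higher in responders (adjusted p = 0.0493). That call was lost in 6 of 8 alternatives: with the mouse as a block (adjusted p = 0.0594), without the outlying Day 24 library (0.107), with the tag series as a covariate (0.111), without the filter on low counts (0.0728), with haemoglobin genes removed (0.0556) and with the mouse of conflicting labels as a responder on Day 17 (0.051). DESeq2 (0.0286) and log2(TPM + 1) (0.0437) kept it. The values ran from 0.15 to 0.19 in these alternatives and were 0.60 on log2(TPM + 1), where the median of all genes was 0.19.

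Other genes of the pathway were followed through a list of 80 splicing factors. Of these, 10, 14 and 14 rose and 38, 41 and 35 fell in non-responders on the 3 days, and 5, 9 and 2 rose and 28, 26 and 12 fell in responders. These are 12.5%, 17.5% and 17.5% of the list up and 47.5%, 51.2% and 43.8% down in non-responders. In responders they are 6.25%, 11.2% and 2.5% up and 35.0%, 32.5% and 15.0% down. The risers lay below the shares of all genes given above and the fallers above them in each comparison. Eftud2, the GTPase that binds Prpf8, fell by 0.32 ± 0.04, 0.30 ± 0.04 and 0.28 ± 0.04 in non-responders, and Ptbp1, which represses exons through the polypyrimidine tract, by 0.22 ± 0.03, 0.25 ± 0.03 and 0.19 ± 0.03. Tra2a, a relative of the SR proteins, rose by 0.44 ± 0.07 on Day 17 in non-responders and by 0.62 ± 0.13 in responders, and Rnpc3, a minor spliceosome protein gene, by 0.44 ± 0.08 and 0.45 ± 0.10. These changes of listed genes are in TMM-scaled counts, and their values on log2(TPM + 1) and within the tag series are not reported here. Between responders and non-responders 2 were higher and none lower on Day 4 (edgeR), 3 and 7 on Day 9, 2 and none on Day 17, and 1 and 4 on Day 24, against 6.4% and 1.01%, 9.43% and 3.95%, 0.799% and 1.19%, and 3.41% and 5.14% of all genes.

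Of 8 kinases that act on SR proteins, 2, 4 and 4 rose and 3, 2 and 1 fell in non-responders on the 3 days, and 3, 4 and 0 rose and 1, 0 and 0 fell in responders. These are 25.0%, 50.0% and 50.0% up and 37.5%, 25.0% and 12.5% down in non-responders, where 23.3%, 21.9% and 23.8% of all genes rose and 27.5%, 24.2% and 24.8% fell. In responders 13.5%, 12.2% and 7.44% of all genes rose and 14.2%, 13.4% and 9.94% fell, and the 1 fall of Day 9 lay near that share. Clk1, a kinase of the SR tails, rose by 0.44, 0.58 and 0.60 in non-responders and by 0.55 and 0.72 in responders on Days 9 and 17. Clk4 rose by 0.29, 0.49 and 0.38 in non-responders and by 0.38 and 0.55 in responders. Srpk1, another SR protein kinase, fell on Day 9, by 0.28 among non-responders and 0.18 among responders. Dyrk1a, a kinase of SR proteins among other targets, fell by 0.20, 0.18 and 0.16 in non-responders. These kinase changes from Day 4 are in TMM-scaled counts. Their values on log2(TPM + 1) and within the tag series are not reported here. On that scale 2.05% and 1.33% of all genes rose in non-responders on Days 17 and 24. On Day 24 Clk1, Srpk3 and Clk4 were lower in responders than in non-responders (-0.38, -0.31 and -0.27), and Dyrk1a was higher (0.14, adjusted p = 0.0423), as was its change from Day 4 (0.29, 0.0178). Of all genes 3.41% were higher and 5.14% lower on that day. None of the Day 24 differences between the 2 groups was called on log2(TPM + 1) or within either tag series, where no gene passed. This does not cover the difference in the change of Dyrk1a, a test in which 9.69% of all genes were higher on log2(TPM + 1). Of 12 genes of the SMN complex and its methylation partners, which load Sm rings onto small nuclear RNAs, 7, 6 and 4 fell in non-responders and 5, 4 and 1 in responders, and Wdr77, a partner of Prmt5, rose on Days 17 and 24 in non-responders (0.14 and 0.11). On Day 24 the falling shares, 33.3% and 8.33%, lay near the 24.8% and 9.94% of all genes. Among those that fell were Prmt5, the arginine methyltransferase for Sm proteins (0.31, 0.30 and 0.26 in non-responders), and Gemin5, which recognises the RNA (0.33, 0.23 and 0.26).

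Over the 6 comparisons with Day 4, 21 of the 67 members tested rose in 1 or more, 35 fell in 1 or more, and 11 were not called: Lsm5, Lsm6, Lsm7, Prpf3, Prpf38a, Sf3b6, Snrnp27, Snrnp35, Snrpd1, Srsf12 and U2af1. Each single comparison called 7.44% to 23.8% of all genes up and 9.94% to 27.5% down. The share of all genes called in 1 or more of the 6 is not given here, so these counts are not set against it.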

How the data were processed

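Per the submitters' processing notes, reads were aligned to mm10 with STAR; the counting tool is not given in the sources used here. The authors deposited estimated counts per gene made from these alignments, not normalized, and TPM values per gene with haemoglobin included. The estimated counts were rounded to whole numbers before testing. All 178 libraries and every deposited column were used, and gene positions came from GENCODE M21 (GRCm38). The members and lists were chosen with earlier results of these data known. edgeR 4.0.16 in R 4.3.3 (TMM, filterByExpr, glmQLFit, glmQLFTest, Benjamini-Hochberg over all genes tested) compared responders with non-responders within each day, each later day with Day 4 within each group (4 days in 1 fit), and the interaction of both. Levels are log2 CPM with a prior count of 2. Alternatives were DESeq2 1.42.0, limma 3.58.1 on log2(TPM + 1), no filter, a fold change of at least 1.5, haemoglobin genes removed, the tag series as covariate or alone, the mouse with conflicting labels as a responder on Day 17, and the outlying Day 24 library left out. The mouse pairs the libraries by ear tag; mean correlations of same-mouse deviations ran from -0.058 to 0.128. Within a day there was 1 library per mouse, and p-values of those comparisons measure the spread between mice. The fits of changes between days and of the interaction held up to 4 libraries of a mouse and no term for the mouse. Their p-values measure the spread between libraries taken as independent. The mouse as a replicate block was an alternative for the changes from Day 4 and the interaction. Named members were, per comparison, the 5 called with the smallest p in each direction, 15 members fixed for their role, and the highest and lowest TPM of each family; others, such as Srsf4, Sf3b5, Prpf31, Lsm12, Lsm6 and the lists given in full, were named after their values were seen. Values of some single genes are not reported here.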

Additional observations from a re-analysis of the deposited data

Results flagged for a closer look

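The change of Prpf8 between Day 4 and Day 24 differed between responders and non-responders by the test of the difference itself, with 0.172 on the log2 scale (responders minus non-responders, edgeR interaction, adjusted p = 0.0493), where responders stood at -0.06 and non-responders at -0.24 from Day 4. The call was lost in 6 of 8 alternatives, among them the mouse as a block (0.0594) and the fit without the outlying Day 24 library (0.107), and the adjusted p ran from 0.0286 to 0.111.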

How the results depend on the processing

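DESeq2 gave 2 members called on Day 17 and 16 on Day 24 between responders and non-responders and 3 for the Day 24 difference of changes. With the tag series as a covariate these were 5 on Day 4, 2 on Day 24 and 3 for the Day 24 difference. Of all genes 10.7%, 0.313% and 3.21% were higher in these 3 tests and 2.73%, 0.666% and 6.34% lower. Shares of all genes by DESeq2 are not given here. Within the mice with 3-digit tags 0, 4 and 0 members differed by response on Days 4, 9 and 24, and 8, 0 and 0 changed in responders on Days 9, 17 and 24; within those with 4-digit tags, also chosen after seeing the data for the changes, 0 differed on each of Days 4, 9 and 24, 14, 19 and 0 changed in responders, and 5, 8 and 3 in non-responders. On Days 9, 17 and 24 the shares of all genes up and down in the latter non-responders were 8.09% and 6.2%, 6.72% and 6.03%, and 3.03% and 0.931%, and the members called there all fell; in the 4-digit responders they were 7.97% and 9.3%, 7.65% and 12.1%, and 2.43% and 1.66%, and in the 3-digit responders 3.61% and 3.31% on Day 9 and 0% later. In the 4-digit non-responders Srsf5 (-0.0457), Srsf1 (-0.0645), Sf3b1 (-0.0766), Srsf3 (-0.0320), Srsf7 (-0.0573) and Prpf39 (-0.0839) reversed on Day 9, Srsf3 (-0.0018), Sf3b1 (-0.00056) and Prpf39 (-0.0255) on Day 17, and Srsf1 (-0.0320), Srsf7 (-3.4e-05), Srsf2 (-0.0519), Snrnp70 (-0.11) and Lsm4 (0.11) on Day 24. Other called risers with the other sign there were Prpf38b on all 3 days, Srsf10 on Day 9, and Snrnp48 and Srsf5 on Day 17. On Day 24 they were also Prpf40b, Prpf4b and Snrnp48. Other called fallers with the other sign were Lsm12, Snrpa and Snrpg on Day 9. On Day 24 they were Lsm12, Lsm3, Snrpd2, Snrpe, Snrpg and U2af1l4. With a fold change of at least 1.5, 1, 1 and 0 members differed by response on Days 4, 9 and 24, 0, 1 and 0 changed in responders, 0, 0 and 0 in non-responders, and 0 had a Day 24 difference. Without the filter 6 members changed in responders on Day 24. The Day 24 difference of 1 member was 0 without the filter, with haemoglobin genes removed, with the mouse of conflicting labels as a responder on Day 17, without the outlying Day 24 library and with the mouse as a replicate block; that block changed no count elsewhere by over 1.5 times. Without the outlying Day 24 library, 16 members differed by response on Day 24.

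On log2(TPM + 1), 64, 65 and 0 members differed by response on Days 4, 9 and 24, 0 changed in responders on Days 9, 17 and 24, 6 changed in non-responders on Day 9, and 8 had a Day 24 difference, where 83.6%, 87.5% and 0% of all genes were lower in responders on Days 4, 9 and 24 and 9.69% had a higher Day 24 difference. In non-responders 11.0% of all genes rose and 9.32% fell on Day 9 on this scale. There responders against non-responders reversed on Day 4 for Snrnp25 (-0.13), Prpf18 (-0.31), Lsm6 (-0.18), Snrpb (-0.66), Snrpd1 (-0.40), Lsm2 (-0.27) and Lsm4 (-0.61), on Day 9 for Prpf18 (-0.22), Lsm6 (-0.22), Snrnp27 (-0.27), Snrpb (-0.59), Snrpd1 (-0.36), Sf3a1 (-0.30) and Lsm2 (-0.31), and on Day 24 for Sf3a1 (-0.0164). In responders Snrpb on Day 17 (0.0769) and Lsm4 on Day 24 (0.00597) reversed, and in non-responders Srsf2 (-0.10), Srsf3 (-0.15), Srsf1 (-0.0491), Srsf6 (-0.0610), Sf3b1 (-0.0672), U2af1 (-0.28) and Snrnp70 (-0.0604) on Day 17 and Srsf1 (-0.0923), Sf3b1 (-0.0905), Srsf3 (-0.21), Prpf18 (-0.11), Srsf2 (-0.26) and Snrnp70 (-0.23) on Day 24. TPM holds haemoglobin in its sum; the causes were not tested. Depth limits Snrpn and Srsf12, the members with the lowest levels.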

Other observations

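Among the 80 other splicing factors, Zmat2, a tri-snRNP protein gene, was higher in responders on Day 4 (0.51 ± 0.11, edgeR adjusted p = 0.00314), Day 9 (0.39 ± 0.07, 5.62e-05) and Day 17 (0.27 ± 0.07, 0.0281), and Bcas2, of the Prp19 complex, on Days 4 and 9 (0.28 ± 0.09 and 0.29 ± 0.07). Lower in responders on Day 24 were Luc7l3 (-0.27 ± 0.06) and Luc7l (-0.19 ± 0.05), relatives of a yeast U1 protein, and Dhx15, the helicase that takes apart the spliceosome (-0.19 ± 0.04). In responders Srrm2, a scaffold protein of nuclear speckles, rose on Day 24 (0.34 ± 0.10), and Luc7l2 rose on Days 9 and 24 (0.26 ± 0.08 and 0.25 ± 0.08). With the tag series as a covariate Zmat2 on Day 17 (0.22, adjusted p = 0.353), Bcas2 on Days 4 and 9 (0.0737 and 0.0918), Luc7l (0.105) and Dhx15 (0.0707) were not called. Between responders and non-responders no gene passed on Day 24 on log2(TPM + 1) or within either tag series. The calls of Luc7l3, Luc7l and Dhx15 were thus lost there. Srrm2 and Luc7l2 were not called on log2(TPM + 1) either (0.48 for Srrm2 and 0.36 for Luc7l2 on Day 24, and 0.25 for Luc7l2 on Day 9). On log2(TPM + 1) Zmat2 and Bcas2 were lower in responders on Days 4 and 9 (-0.24 and -0.22, and -0.37 and -0.28). These genes were named after their values were seen.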
